A study of Mus musculus with 3 samples.

Results

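Chemokines are small secreted proteins that guide leukocytes, and they act through receptors that couple to G proteins. The genes described here are those whose symbol in the deposited tables begins with Ccl, Cxcl, Cx3cl, Ccr, Cxcr, Cx3cr, Xcr or Ackr followed by a number. That rule took 35 of the 15503 genes listed, of which 34 are described, 23 that encode ligands and 11 that encode receptors. The tissue was the left ventricle of C57BL6J mice, profiled by RNA sequencing as 1 library per genotype, each a pool of RNA from 3 mice. The first library carries the label Egln1/Hif2aTie2Cre, which names deletion of Egln1 and of Hif2a (the protein of the gene Epas1) by Cre recombinase under the Tie2 promoter. The second library is Egln1Tie2Cre, in which Egln1 alone is targeted by the same Cre, and the third is from Egln1 floxed mice, which the series' design calls wild type. Egln1 encodes PHD2, a prolyl hydroxylase through which hypoxia-inducible factors (HIF) are degraded when oxygen is present. The study asked what its loss from endothelium does to heart size and scarring. Besides endothelium, the Tie2 promoter is active in blood-forming cells, so leukocytes that carry chemokine receptors may be targeted too. Ages and sexes were not given in the labels.

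Each level is an FPKM, a fragment number scaled by transcript length and by the library's total, so levels of different genes can be set side by side. With 1 pooled library per genotype no value has a replicate, no difference was tested, and every difference below is between libraries and not between genotypes. Egln1 had 129.0 FPKM in the library labelled Egln1/Hif2aTie2Cre, 95.7 FPKM in the Egln1Tie2Cre library and 129.5 FPKM in the floxed library. The Egln1 level of the first library thus goes against its label, and directions drawn from it rest on that label. Epas1 had 54.5 FPKM in the library labelled Egln1/Hif2aTie2Cre, 65.0 FPKM in the Egln1Tie2Cre library and 77.4 FPKM in the floxed library. A gene-wide level in whole ventricle, where other cells keep the gene and a deleted exon is only a stretch of it, checks such a deletion poorly. The cardiomyocyte gene Actc1, the cardiac alpha-actin, lay between 5675 and 6426 FPKM in the 3 libraries, as the tissue label states. Other cardiomyocyte markers were less level. In the same order of libraries, Myh6 was 4600, 3645 and 6691 FPKM, and Tnnt2 was 8673, 8947 and 7761 FPKM. Ryr2 was 85.8 FPKM in the library labelled Egln1/Hif2aTie2Cre and 145 FPKM in the floxed library, and is not listed for the Egln1Tie2Cre library. In whole tissue, fewer cells of a type and less RNA per cell cannot be told apart.

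Chemokine ligands are grouped into families by the spacing of their first cysteines, which gives the Ccl, Cxcl and Cx3cl names. Homeostatic members such as Cxcl12 are made at steady state by stromal and endothelial cells, whereas inflammatory members such as Ccl2 are induced and draw monocytes, neutrophils or lymphocytes into tissue. Atypical receptors, named Ackr, bind chemokines without G-protein signalling and remove them. In the heart, Ccl2 and its receptor Ccr2 are known for the recruitment of monocytes, and Cxcl12 and its receptor Cxcr4 are known as products of HIF target genes.

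Upstream sequences of 5 members are shown because the results turn on them. Cxcl12 was the highest ligand, Cxcr4 and Ackr3 are its receptors, and Ccl6 and Ccl9 were the ligands at least 2-fold higher in the library labelled Egln1/Hif2aTie2Cre than in the floxed library by the ratio of FPKM + 1. Each is the 250 bases before the gene's start from RefSeq on GRCm38.p6, in the gene's own direction, with the HIF core motifs ACGTG and GCGTG in capitals where they were found on either strand.
Cxcl12, chr6:117168285-117168534, plus strand: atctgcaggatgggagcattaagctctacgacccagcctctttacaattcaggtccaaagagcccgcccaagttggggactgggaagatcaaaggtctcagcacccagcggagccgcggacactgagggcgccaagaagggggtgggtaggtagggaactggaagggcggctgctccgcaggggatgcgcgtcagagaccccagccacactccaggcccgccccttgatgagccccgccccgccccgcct
Cxcr4, chr1:128592300-128592549, minus strand: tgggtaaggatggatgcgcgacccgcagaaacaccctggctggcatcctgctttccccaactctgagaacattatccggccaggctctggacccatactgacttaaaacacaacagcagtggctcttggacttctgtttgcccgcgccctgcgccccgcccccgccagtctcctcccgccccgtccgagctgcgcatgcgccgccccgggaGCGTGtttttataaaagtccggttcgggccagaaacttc
Ackr3, chr1:90203730-90203979, plus strand: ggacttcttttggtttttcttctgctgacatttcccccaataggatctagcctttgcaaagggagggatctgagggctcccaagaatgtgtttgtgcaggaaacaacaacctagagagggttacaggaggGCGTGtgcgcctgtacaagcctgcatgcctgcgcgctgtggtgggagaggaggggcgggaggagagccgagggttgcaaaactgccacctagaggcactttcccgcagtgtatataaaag
Ccl6, chr11:83593088-83593337, minus strand: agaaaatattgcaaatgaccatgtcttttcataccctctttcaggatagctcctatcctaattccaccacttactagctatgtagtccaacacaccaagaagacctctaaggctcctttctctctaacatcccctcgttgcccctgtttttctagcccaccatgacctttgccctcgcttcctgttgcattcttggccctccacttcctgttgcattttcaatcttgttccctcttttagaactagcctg
Ccl9, chr11:83578637-83578886, minus strand: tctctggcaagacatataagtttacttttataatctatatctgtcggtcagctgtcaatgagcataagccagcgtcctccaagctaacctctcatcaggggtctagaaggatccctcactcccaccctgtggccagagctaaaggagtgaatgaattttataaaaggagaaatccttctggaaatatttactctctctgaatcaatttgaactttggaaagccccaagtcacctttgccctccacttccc
Cxcr4 held GCGTG 39 to 35 bases before its start, and Ackr3 held GCGTG 120 to 116 bases before its start. Neither motif was found in the windows of Cxcl12, Ccl6 and Ccl9, which says nothing about the factor. Windows of 24 of the 34 members were matched by symbol, and 10 of these held ACGTG or GCGTG on either strand (41.7%), against 38.6% of all 32851 windows. An NF-kB motif was found in the windows of 5 of the 24 members, namely Ackr2, Ccl9, Ccr1, Cxcl1 and Cxcl10 (20.8%), against 7.25% of all windows. For both motif types a member was counted where any window of its symbol held the motif, whereas the share of all windows counts each window singly. Member and window shares are thus not counted alike. Matches on opposite strands can overlap, and a match is a description of the letters.

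Among the homeostatic ligands, Cxcl12 was the most abundant in every library. Its level was 42.8 FPKM in the library labelled Egln1/Hif2aTie2Cre, 50.2 FPKM in the Egln1Tie2Cre library and 56.0 FPKM in the floxed library. It was thus highest in the floxed library, and the lowest value was 1.31-fold below it. Cxcl12 made up 32.8% of the summed FPKM of the 18 ligands with a value in all 3 libraries in the library labelled Egln1/Hif2aTie2Cre, 47.9% in the Egln1Tie2Cre library and 52.6% in the floxed library. Without Cxcl12, the sum of the others was 87.6, 54.6 and 50.4 FPKM in the same order of libraries, so the other ligands together were highest in the library labelled Egln1/Hif2aTie2Cre. The 5 endothelial markers summed to 238, 223 and 207 FPKM and the 5 fibroblast markers to 344, 302 and 273 FPKM in that order of libraries. Single markers did not all keep that order, since Emcn was 44.8, 21.9 and 21.4 FPKM whereas Cdh5 was 58.1, 56.9 and 64.3 FPKM, both endothelial surface proteins. Of the fibroblast markers, Dcn made up most of each sum. Dcn and Tcf21 kept that order of libraries, whereas Col1a1, Pdgfra and Lum did not. The part of endothelial cells and fibroblasts in the Cxcl12 level was not tested. Cxcl14, a constitutively made ligand of epithelium and stroma, was 10.5 FPKM in the library labelled Egln1/Hif2aTie2Cre, 5.22 FPKM in the Egln1Tie2Cre library and 7.52 FPKM in the floxed library. That placed the Egln1Tie2Cre library lowest, 2.02-fold below the library labelled Egln1/Hif2aTie2Cre.

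Transmembrane ligands differed by at most 1.48-fold between libraries. Cx3cl1, or fractalkine, which tethers cells that carry Cx3cr1, was 2.57 FPKM in the library labelled Egln1/Hif2aTie2Cre, 2.57 FPKM in the Egln1Tie2Cre library and 2.08 FPKM in the floxed library. Cxcl16, the ligand of Cxcr6, was 6.33 FPKM in the library labelled Egln1/Hif2aTie2Cre, 5.36 FPKM in the Egln1Tie2Cre library and 4.26 FPKM in the floxed library. Its exons share 552 bases with Zmynd15, which was at 1.48 to 1.61 FPKM in the 3 libraries, and reads of the pair cannot be told apart where they overlap without strand.

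The lymphoid-tissue ligands carry a limit of sequence. Ccl21a and Ccl19, which draw cells with Ccr7 towards lymphatic vessels and lymph nodes, each have 4 near-identical copies among annotated mouse transcripts, and Ccl27a, a skin ligand of Ccr10, has 5. Ccl21a was 15.9 FPKM in the library labelled Egln1/Hif2aTie2Cre and 9.40 FPKM in the floxed library. Ccl19 was 1.16 FPKM in the library labelled Egln1/Hif2aTie2Cre and 0.482 FPKM in the floxed library. Both were thus higher in the library labelled Egln1/Hif2aTie2Cre, and neither is listed for the Egln1Tie2Cre library. Lymphatic markers Prox1, Lyve1 and Flt4 summed to 25.1, 19.2 and 22.4 FPKM in the library labelled Egln1/Hif2aTie2Cre, the Egln1Tie2Cre library and the floxed library. Pdpn is not listed. Lyve1 had the order of that sum, whereas Prox1 was highest in the floxed library and Flt4 was lowest there. The part of lymphatic cells in the Ccl21a and Ccl19 levels was not tested. Ccl27a was 11.6 FPKM in the library labelled Egln1/Hif2aTie2Cre, 11.5 FPKM in the Egln1Tie2Cre library and 7.95 FPKM in the floxed library. It shares 8 exonic bases with Il11ra1, which was 42.4, 39.3 and 26.9 FPKM in the same order of libraries. Ccl25, a ligand of thymus and gut that shares 204 exonic bases with Elavl1, was 2.28 FPKM in the library labelled Egln1/Hif2aTie2Cre, 1.03 FPKM in the Egln1Tie2Cre library and 1.23 FPKM in the floxed library. The values of these 4 genes are uncertain.

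**Figure D1:**
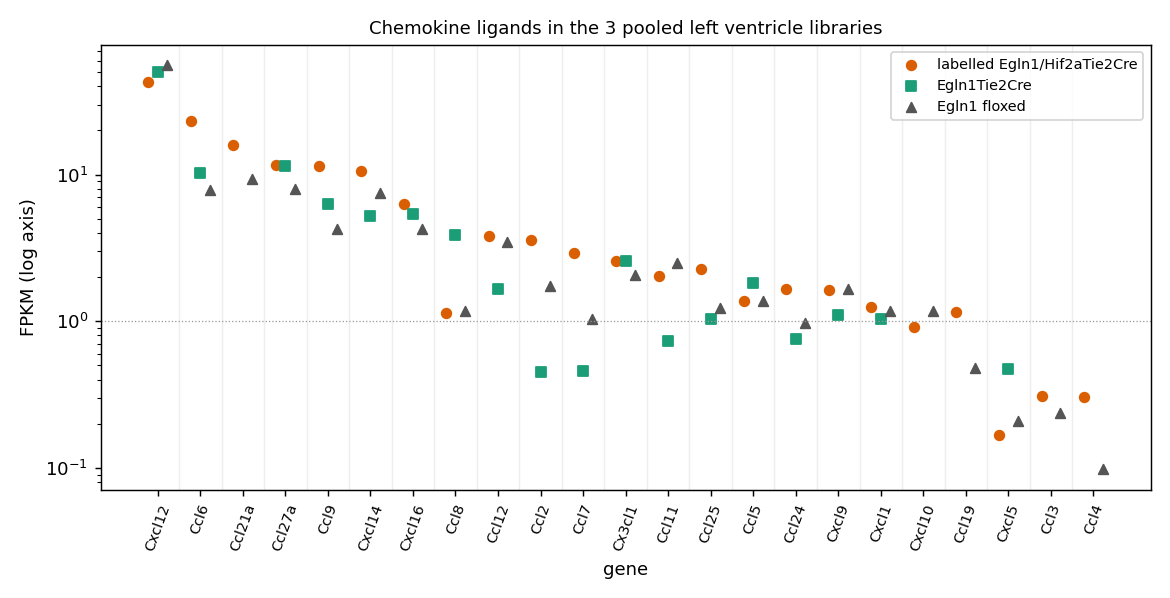
FPKM on a log axis of the 23 chemokine ligand genes, 1 point per pooled library, ordered by the highest value of each gene, with a dotted line at 1 FPKM. Cxcl12 lies above every other ligand in each library, and Ccl2 and Ccl7 in the Egln1Tie2Cre library (0.452 and 0.461 FPKM) lie below their points in the other libraries.

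The monocyte-attracting ligands lie in a cluster on chromosome 11 (GRCm38, 82035571 to 82116799), which holds Ccl2, Ccl7, Ccl11, Ccl12 and Ccl8 in that order. Ccl2, Ccl7 and Ccl12 are ligands of Ccr2. Ccl2 was 3.58 FPKM in the library labelled Egln1/Hif2aTie2Cre, 0.452 FPKM in the Egln1Tie2Cre library and 1.74 FPKM in the floxed library. Its level in the Egln1Tie2Cre library was 3.85-fold below the floxed library, and the library labelled Egln1/Hif2aTie2Cre was 7.93-fold above the Egln1Tie2Cre library and 2.06-fold above the floxed library. Ccl7 had the same order, with 2.92 FPKM in the library labelled Egln1/Hif2aTie2Cre, 0.461 FPKM in the Egln1Tie2Cre library and 1.04 FPKM in the floxed library. Ccl12 was 3.80 FPKM in the library labelled Egln1/Hif2aTie2Cre, 1.65 FPKM in the Egln1Tie2Cre library and 3.44 FPKM in the floxed library. All of these Ccr2 ligands were thus lowest in the Egln1Tie2Cre library and highest in the library labelled Egln1/Hif2aTie2Cre.

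Ccl11 and Ccl8 of the same cluster differed from that order. Ccl11, or eotaxin, which draws eosinophils through Ccr3, was 2.03 FPKM in the library labelled Egln1/Hif2aTie2Cre, 0.731 FPKM in the Egln1Tie2Cre library and 2.50 FPKM in the floxed library. It was 3.41-fold lower in the Egln1Tie2Cre library than in the floxed library. Ccl24, another eotaxin, which lies on chromosome 5, was 1.67 FPKM in the library labelled Egln1/Hif2aTie2Cre, 0.761 FPKM in the Egln1Tie2Cre library and 0.966 FPKM in the floxed library. Ccl8, which in mice acts through Ccr8, was 1.13 FPKM in the library labelled Egln1/Hif2aTie2Cre, 3.87 FPKM in the Egln1Tie2Cre library and 1.18 FPKM in the floxed library. Ccl8 was therefore the member of the cluster that was highest in the Egln1Tie2Cre library, 3.28-fold above the floxed library.

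The fragment numbers behind these levels were small. FPKM of genes with 1 annotated transcript, multiplied by transcript length less an offset of 200 to 215 bases, fell on whole multiples of 1 fragment for 87.8% to 90.1% of low values within 0.15 of a whole number, where 30% would do so if values had no such steps. Offset and step were chosen to fit these same low values, so that share is no independent check of the recovery. Larger fragment numbers use the same offset and step. Among members with 1 annotated transcript, 23 of 24 values fell within 0.2 of a whole number, the tolerance used for members. The steps correspond to scaling totals of 28600000 fragments in the library labelled Egln1/Hif2aTie2Cre, 21700000 in the Egln1Tie2Cre library and 23100000 in the floxed library. Ccl7 rested on 50 fragments in the library labelled Egln1/Hif2aTie2Cre, 6 in the Egln1Tie2Cre library and 14 in the floxed library. Their exact Poisson 95% intervals correspond to 2.16 to 3.84 FPKM in the library labelled Egln1/Hif2aTie2Cre, 0.169 to 0.9996 FPKM in the Egln1Tie2Cre library and 0.564 to 1.73 FPKM in the floxed library. For Ccl7 the interval of the library labelled Egln1/Hif2aTie2Cre thus lay above the others, which met each other.

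Ccl11 rested on 51 fragments in the library labelled Egln1/Hif2aTie2Cre, 14 in the Egln1Tie2Cre library and 50 in the floxed library, with intervals of 1.51 to 2.66, 0.399 to 1.23 and 1.85 to 3.28 FPKM. Ccl8 rested on 10 fragments in the library labelled Egln1/Hif2aTie2Cre, 26 in the Egln1Tie2Cre library and 8 in the floxed library, with intervals of 0.5397 to 2.07, 2.51 to 5.63 and 0.504 to 2.30 FPKM. The interval of the Egln1Tie2Cre library lay below the others for Ccl11 and above the others for Ccl8. Ccl2 and Ccl12 have 2 annotated transcripts each, which leaves ranges for their fragments. For Ccl2 these were 63 to 92 in the library labelled Egln1/Hif2aTie2Cre, 6 to 9 in the Egln1Tie2Cre library and 24 to 35 in the floxed library. For Ccl12 they were 31 to 37 in the library labelled Egln1/Hif2aTie2Cre, 10 to 12 in the Egln1Tie2Cre library and 21 to 26 in the floxed library. The intervals cover counting error alone, and neither the spread between mice nor fragments amplified from 1 molecule.

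**Figure D2:**
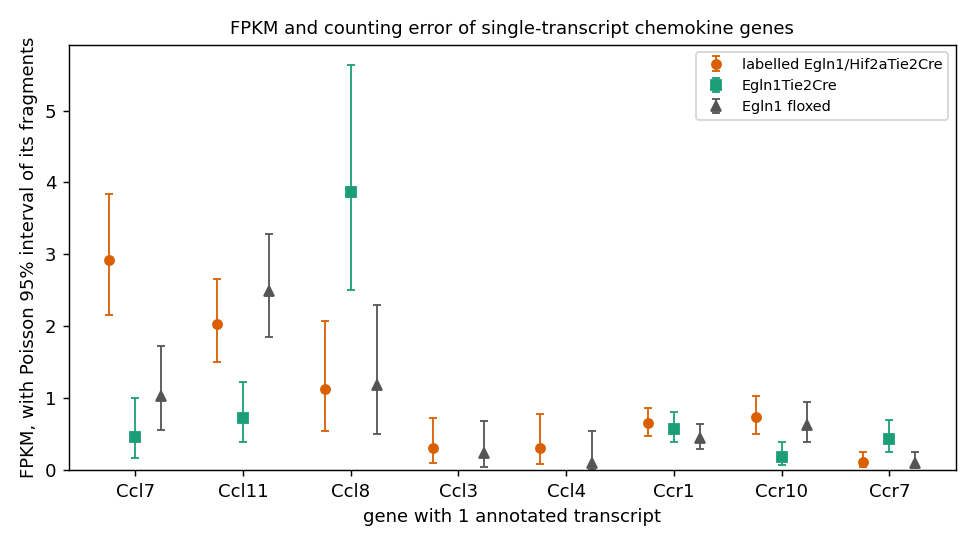
FPKM of 8 chemokine genes with 1 annotated transcript, 1 point per library that lists the gene, with bars that give the exact Poisson 95% interval of the recovered fragments on the FPKM scale. The bar of the Egln1Tie2Cre library lies below the others for Ccl11 (0.399 to 1.23 FPKM) and above them for Ccl8 (2.51 to 5.63 FPKM).

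Ccl6 and Ccl9, rodent chemokines made by macrophages that act through Ccr1, lie beside each other on chromosome 11 (83572919 to 83593087). Ccl6 was 23.4 FPKM in the library labelled Egln1/Hif2aTie2Cre, 10.2 FPKM in the Egln1Tie2Cre library and 7.90 FPKM in the floxed library. Ccl9 was 11.4 FPKM in the library labelled Egln1/Hif2aTie2Cre, 6.33 FPKM in the Egln1Tie2Cre library and 4.23 FPKM in the floxed library. Both were highest in the library labelled Egln1/Hif2aTie2Cre, 2.96-fold and 2.69-fold above the floxed library, and both were lowest in the floxed library, unlike the Ccr2 ligands. Each rested on at least 18 fragments in every library, whichever annotated transcript is taken. Ccl5, Ccl3 and Ccl4, which draw T cells and monocytes, lie near them on the same chromosome. Ccl5 was 1.38 FPKM in the library labelled Egln1/Hif2aTie2Cre, 1.81 FPKM in the Egln1Tie2Cre library and 1.38 FPKM in the floxed library. Ccl3 rested on 5 fragments in the library labelled Egln1/Hif2aTie2Cre and 3 in the floxed library, and Ccl4 rested on 4 and 1 in the same pair, so no difference of either was detectable at this depth. Neither is listed for the Egln1Tie2Cre library.

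Of 9 macrophage and monocyte marker symbols, 8 were measured, with Adgre1 under its older symbol Emr1 and none of the 8 at 0. They summed to 187 FPKM in the library labelled Egln1/Hif2aTie2Cre, 91.6 FPKM in the Egln1Tie2Cre library and 124.5 FPKM in the floxed library. Most of each sum was Lyz2, the lysozyme of myeloid cells, at 153, 62.5 and 91.9 FPKM in the same order of libraries. Csf1r, the growth factor receptor that defines macrophages, was 10.8 FPKM in the library labelled Egln1/Hif2aTie2Cre, 10.3 FPKM in the Egln1Tie2Cre library and 10.2 FPKM in the floxed library. Ly6c2, a surface protein gene of inflammatory monocytes, was 0.236, 0.619 and 0.149 FPKM in that order of libraries. The marker sum thus had the same order as Ccl2, Ccl7 and Ccl12. Emr1 (3.64, 2.385 and 2.75 FPKM), Cd163 (6.93, 5.35 and 5.77 FPKM) and Fcgr1 (1.10, 0.635 and 0.909 FPKM) had that order too. Cd68 and Mrc1 were lowest in the Egln1Tie2Cre library but highest in the floxed library. Csf1r was nearly level, and Ly6c2 was highest in the Egln1Tie2Cre library. The part of macrophage number in the Ccl2, Ccl7 and Ccl12 levels was not tested.

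Inflammatory CXC ligands were low. Cxcl1, which draws neutrophils through Cxcr2, was 1.26 FPKM in the library labelled Egln1/Hif2aTie2Cre, 1.04 FPKM in the Egln1Tie2Cre library and 1.17 FPKM in the floxed library. Cxcl5, another Cxcr2 ligand, was 0.168 FPKM in the library labelled Egln1/Hif2aTie2Cre, 0.474 FPKM in the Egln1Tie2Cre library and 0.210 FPKM in the floxed library. Cxcl9, an interferon-induced ligand of Cxcr3, was 1.63 FPKM in the library labelled Egln1/Hif2aTie2Cre, 1.10 FPKM in the Egln1Tie2Cre library and 1.65 FPKM in the floxed library. Cxcl1 was thus nearly level. Cxcl5 was 2.26-fold higher in the Egln1Tie2Cre library than in the floxed library, but on few fragments. These numbered 14 to 17 in the Egln1Tie2Cre library and 7 to 8 in the floxed library. Cxcl9 was lowest in the Egln1Tie2Cre library. Cxcl10, a ligand of the same receptor, was 0.909 FPKM in the library labelled Egln1/Hif2aTie2Cre and 1.18 FPKM in the floxed library, is not listed for the Egln1Tie2Cre library, and shares 133 exonic bases with Art3, a gene at 221.9 to 300.5 FPKM.

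Ackr3, which takes up Cxcl12, was the most abundant receptor. Its level was 30.1 FPKM in the library labelled Egln1/Hif2aTie2Cre, 19.2 FPKM in the Egln1Tie2Cre library and 26.3 FPKM in the floxed library, and it made up 61.0% to 73.9% of the summed FPKM of the 10 receptors with a value in all 3 libraries. Cxcr4, the signalling receptor of Cxcl12, was 3.40 FPKM in the library labelled Egln1/Hif2aTie2Cre, 2.23 FPKM in the Egln1Tie2Cre library and 3.10 FPKM in the floxed library. Both Cxcl12 receptors were thus lowest in the Egln1Tie2Cre library, 1.37-fold and 1.39-fold below the floxed library, while their ligand was lowest in the library labelled Egln1/Hif2aTie2Cre.

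Ackr2, which scavenges inflammatory CC chemokines including Ccl2, was the receptor with the largest difference. It was 0.595 FPKM in the library labelled Egln1/Hif2aTie2Cre, 5.25 FPKM in the Egln1Tie2Cre library and 0.638 FPKM in the floxed library. The Egln1Tie2Cre library was 8.23-fold above the floxed library, and the library labelled Egln1/Hif2aTie2Cre was 8.82-fold below the Egln1Tie2Cre library. Its annotated transcripts run from 345 to 3015 bases, which leaves its fragments in the Egln1Tie2Cre library between 17 and 321. Ackr2 (chromosome 9, 121898355 to 121911074, plus strand) shares no exonic base with another annotated gene. Cyp8b1, a bile acid synthesis gene listed beside it on the same chromosome, was 0.120 FPKM in the library labelled Egln1/Hif2aTie2Cre, 0.683 FPKM in the Egln1Tie2Cre library and 0.0747 FPKM in the floxed library, so it was highest in the same library at a far lower level. Of 5 mesothelial and epithelial markers, 4 were measured, and they summed to 2.42 FPKM in the library labelled Egln1/Hif2aTie2Cre, 24.4 FPKM in the Egln1Tie2Cre library and 2.70 FPKM in the floxed library. Krt19, an epithelial keratin, and Wt1, a mesothelial transcription factor, made up most of the sum in the Egln1Tie2Cre library at 13.7 and 10.2 FPKM, Upk3b was lowest there at 0.0429 FPKM, and Msln is not listed. The part of these cells in the Ackr2 level was not tested. Ackr4, which takes up Ccl19, Ccl21 and Ccl25, was 3.52 FPKM in the library labelled Egln1/Hif2aTie2Cre, 2.24 FPKM in the Egln1Tie2Cre library and 1.96 FPKM in the floxed library, and shares 479 exonic bases with Acad11, a gene at 50.7 to 62.9 FPKM.

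**Figure D3:**
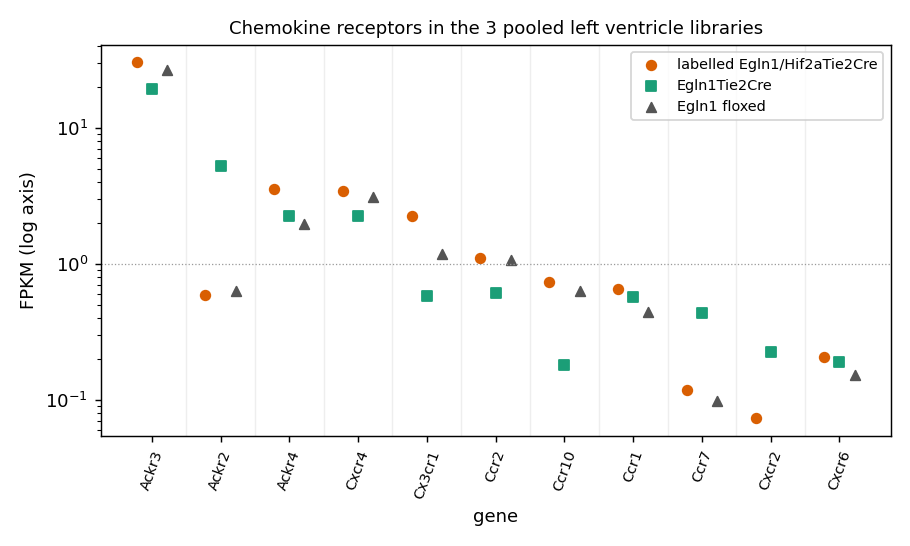
FPKM on a log axis of 11 chemokine receptor genes, 1 point per pooled library, ordered by the highest value of each gene, with a dotted line at 1 FPKM. Ackr2 at 5.25 FPKM in the Egln1Tie2Cre library stands above its other points, and Cx3cr1 and Ccr10 are lowest in that library.

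Receptors of monocytes and macrophages were low. Cx3cr1, the fractalkine receptor of patrolling monocytes and resident macrophages, was 2.26 FPKM in the library labelled Egln1/Hif2aTie2Cre, 0.586 FPKM in the Egln1Tie2Cre library and 1.17 FPKM in the floxed library. Ccr2, the receptor of Ccl2, was 1.11 FPKM in the library labelled Egln1/Hif2aTie2Cre, 0.610 FPKM in the Egln1Tie2Cre library and 1.07 FPKM in the floxed library. Both receptors had the same order of libraries as Ccl2 and Ccl7, with the library labelled Egln1/Hif2aTie2Cre 3.85-fold and 1.82-fold above the Egln1Tie2Cre library. Cx3cr1 shares 78 exonic bases with another annotated gene. Ccr1, the receptor of Ccl6 and Ccl9, rested on 49 fragments in the library labelled Egln1/Hif2aTie2Cre, 33 in the Egln1Tie2Cre library and 27 in the floxed library, and it had the order of its ligands with counting intervals that met in all 3.

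Ccr10, the receptor of Ccl27a, was 0.734 FPKM in the library labelled Egln1/Hif2aTie2Cre, 0.181 FPKM in the Egln1Tie2Cre library and 0.629 FPKM in the floxed library. These levels rested on 32, 6 and 22 fragments. The upper end of the interval in the Egln1Tie2Cre library (0.3937 FPKM) lay only just under the lower end in the floxed library (0.3942 FPKM). Ccr7, the receptor of Ccl19 and Ccl21a on T cells and dendritic cells, was 0.118 FPKM in the library labelled Egln1/Hif2aTie2Cre, 0.440 FPKM in the Egln1Tie2Cre library and 0.0980 FPKM in the floxed library. It rested on 6, 17 and 4 fragments, and the lower end of the interval in the Egln1Tie2Cre library (0.256 FPKM) lay just under the upper end in the library labelled Egln1/Hif2aTie2Cre (0.257 FPKM) and just above that in the floxed library (0.251 FPKM). Cxcr2, the neutrophil receptor of Cxcl1 and Cxcl5, was 0.0740 FPKM in the library labelled Egln1/Hif2aTie2Cre and 0.227 FPKM in the Egln1Tie2Cre library, and is not listed for the floxed library. Cxcr6, a T-cell receptor, lay between 0.154 and 0.207 FPKM in the 3 libraries. Ccr7 was thus highest in the Egln1Tie2Cre library, and Cxcr2 was the higher there of the pair of libraries that list it, both on few fragments.

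Markers of other leukocytes also differed between the libraries, but not all in the same direction. Of 6 neutrophil markers, 3 were measured (S100a8, S100a9 and Csf3r), and they summed to 10.03 FPKM in the library labelled Egln1/Hif2aTie2Cre, 55.9 FPKM in the Egln1Tie2Cre library and 2.15 FPKM in the floxed library, while Ly6g, Mpo and Retnlg are not listed. Of 8 T and NK cell markers, 6 were measured, and they summed to 2.64, 3.74 and 1.75 FPKM in the same order of libraries, with Trac, the T-cell receptor alpha constant gene, at 0.332, 1.31 and 0.219 FPKM. Trac, Cd3g and Cd8a were highest in the Egln1Tie2Cre library, and Gzma, Cd4 and Nkg7 were highest in the library labelled Egln1/Hif2aTie2Cre. The Egln1Tie2Cre library thus held the highest sums of both lists. It did not for B lymphocyte markers (1.53, 1.03 and 0.856 FPKM in the same order of libraries). Nor did it for dendritic cell markers (7.21, 6.27 and 5.81 FPKM) or mast cell markers (2.91, 2.59 and 3.71 FPKM). The part of any of these cells in the Cxcr2, Cxcl5 and Ccr7 levels was not tested.

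Counts over each class were set beside all genes by the log2 ratio of FPKM + 1, which understates the difference of low genes, wherever the mean of the 2 libraries compared reached 1 FPKM. Between the Egln1Tie2Cre and floxed libraries, 15 of the 23 ligands and 4 of the 11 receptors passed that filter. Ligands at least 2-fold higher numbered 1 (Ccl8), against 3.93% of all 11978 genes, and those at least 2-fold lower numbered 1 (Ccl11), against 3.84%. Ackr2 was the 1 receptor at least 2-fold higher, and 0 were lower. At 1.5-fold, 1 ligand and 1 receptor were higher, against 9.46% of all genes, and 3 ligands (Ccl11, Ccl2 and Ccl12) and 0 receptors were lower, against 8.73%. Ackr2 was under 1 FPKM in the floxed library and passed the filter only through its higher value. The same held for Ccl11 and Ccl2, which were under 1 FPKM in the Egln1Tie2Cre library. Ccl7 and Cx3cr1 did not pass, though their plain FPKM was 2.25-fold and 2.00-fold lower in the Egln1Tie2Cre library. The median log2 ratio was -0.09 for ligands and -0.11 for receptors (-0.35 without the filter on low values), against 0.02 over all genes, and 7 ligands lay above and 8 below the floxed library.

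Between the library labelled Egln1/Hif2aTie2Cre and the Egln1Tie2Cre library, 17 ligands and 5 receptors passed the filter. Ccl2, Ccl7 and Ccl6 were the 3 ligands at least 2-fold higher, with log2 ratios of 1.66, 1.42 and 1.12, against 4.31% of all 11999 genes higher. Ccl8 was the 1 ligand at least 2-fold lower, against 4.08%. Cx3cr1 was the 1 receptor at least 2-fold higher and Ackr2 the 1 at least 2-fold lower, at -1.97. At 1.5-fold, 9 of the 17 ligands were higher, against 9.67% of all genes, and these were Ccl2, Ccl7, Ccl6, Cxcl14, Ccl12, Ccl11, Ccl9, Ccl25 and Ccl24. Ackr3 and Cx3cr1 were the 2 receptors higher at that size, while 1 ligand and 1 receptor were lower, against 9.64%. Ccl2, Ccl7, Ccl11, Ccl24 and Cx3cr1 were under 1 FPKM in the Egln1Tie2Cre library and passed the filter only through their higher value. Ackr2 passed only through its value in the Egln1Tie2Cre library. These counts thus rest partly on members that their high value let in. The median was 0.60 for ligands and 0.48 for receptors, against -0.02 over all genes.

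Between the library labelled Egln1/Hif2aTie2Cre and the floxed library, 19 ligands and 5 receptors passed the filter. Ccl6 and Ccl9 were the 2 ligands at least 2-fold higher, with log2 ratios of 1.45 and 1.24, against 0.538% of all 11888 genes, and 0 ligands were at least 2-fold lower, against 0.437%. At 1.5-fold, 5 ligands were higher (Ccl6, Ccl9, Ccl7, Ccl2 and Ccl21a) and 1 receptor (Ackr4), against 4.42% of all genes, and 0 members were lower, against 3.28%. Receptors at least 2-fold apart numbered 0. The median was 0.44 for ligands and 0.19 for receptors, against -0.0038 over all genes, and it was 0.16 for ligands and 0.10 for receptors without members that have a near-identical copy or an overlapping gene. In this pair 14 of 19 ligands and 5 of 5 receptors lay above the floxed library, against 49.4% of all genes. Ccl24 was under 1 FPKM in the floxed library and passed the filter only through its higher value. Cxcl10, under 1 FPKM in the library labelled Egln1/Hif2aTie2Cre, passed only through its value in the floxed library. The 3 comparisons share libraries, so they are no independent views of the same genes. In the authors' deposited tables, which compare libraries, the q-value was 0.9996 for every member listed (27, 29 and 31 genes), while 69, 85 and 2 genes had a q-value of at most 0.05 in the same order of comparisons.

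**Figure D4:**
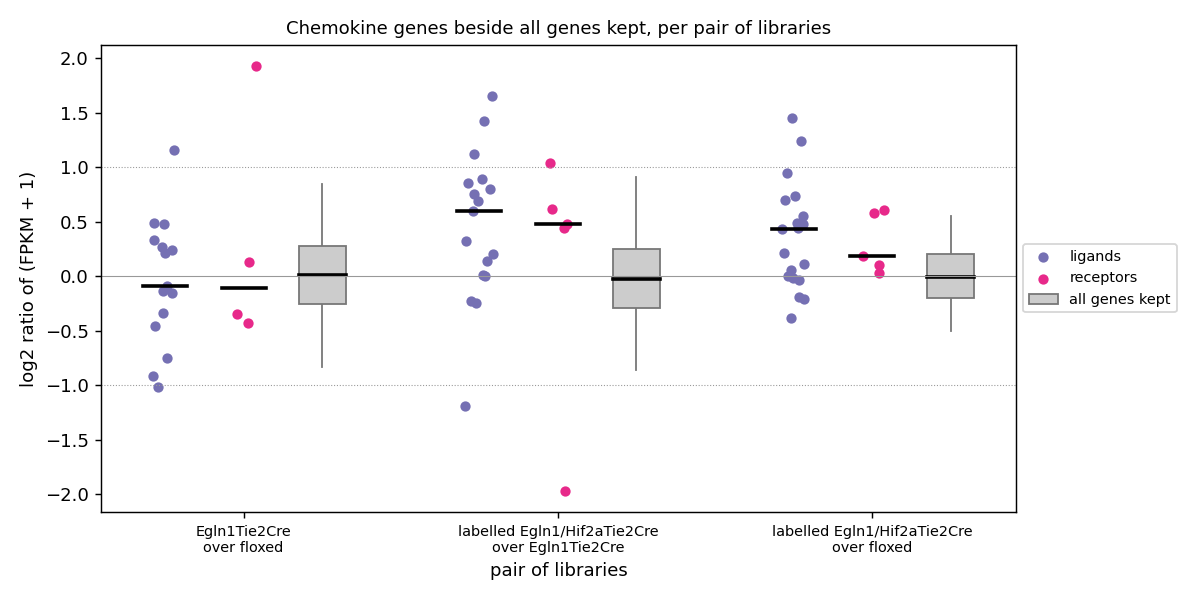
Log2 ratio of FPKM + 1 for each chemokine ligand and receptor that passed the filter in each pair of libraries, with black lines at the medians and grey boxes spanning the 25th to 75th percentiles of all genes kept (thin lines, 5th to 95th). Most points lie above 0 in both pairs that involve the library labelled Egln1/Hif2aTie2Cre, with medians of 0.60 and 0.44 for ligands.

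Across the 3 libraries, 17 ligands and 5 receptors had a value in each and a mean of at least 1 FPKM. Ackr2 passed only through its value in the Egln1Tie2Cre library, and Ccl24 only through its value in the library labelled Egln1/Hif2aTie2Cre. Each was under 1 FPKM in the other libraries, so the counts below rest partly on members that their high value let in. The level was highest in the library labelled Egln1/Hif2aTie2Cre for 12 of the 17 ligands and 4 of the 5 receptors, against 30.9% of 11968 genes. It was lowest in the Egln1Tie2Cre library for 9 of the 17 ligands and 3 of the 5 receptors, against 36.2% of genes. Lowest in the library labelled Egln1/Hif2aTie2Cre were 2 ligands and 1 receptor, against 33.7% of genes, and lowest in the floxed library were 6 ligands and 1 receptor, against 30.1%. Ccl8, Ccl5 and Ackr2 were the members highest in the Egln1Tie2Cre library, against 39.6% of genes, and Ccl11, Cxcl9 and Cxcl12 were those highest in the floxed library, against 29.4%.

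Related ligands and receptors outside the naming rule gave further values. Of 18 such genes, 14 were measured and 7 kept between the Egln1Tie2Cre and floxed libraries, with a median log2 ratio of -0.15. Among these Mif, the macrophage migration inhibitory factor that binds Cd74, was the 1 gene at least 2-fold lower, against 3.84% of all genes, and 0 were higher, against 3.93%. Mif was 182 FPKM in the library labelled Egln1/Hif2aTie2Cre, 15.2 FPKM in the Egln1Tie2Cre library and 121.5 FPKM in the floxed library. The mouse genome holds processed pseudogenes of Mif, so its values are uncertain. Pf4, a platelet CXC chemokine whose symbol the rule does not take, was named after its values were seen. It was 29.1 FPKM in the library labelled Egln1/Hif2aTie2Cre, 21.4 FPKM in the Egln1Tie2Cre library and 19.1 FPKM in the floxed library. That was second to Cxcl12 among CXC ligands in each library. The other platelet markers were low and highest in the floxed library. In the same order of libraries, Ppbp, another platelet CXC chemokine, was 0.279, 0.314 and 0.851 FPKM, and Itga2b was 0.667, 0.312 and 1.48 FPKM. Gp1bb was 0.0792 FPKM in the library labelled Egln1/Hif2aTie2Cre and 0.238 FPKM in the floxed library, and is not listed for the Egln1Tie2Cre library. Of the related genes, 8 were kept between the library labelled Egln1/Hif2aTie2Cre and the Egln1Tie2Cre library, with a median of 0.30. Mif was the 1 gene of these at least 2-fold higher, against 4.31% of all genes, and 0 were lower, against 4.08%. Between the library labelled Egln1/Hif2aTie2Cre and the floxed library, 0 of 8 were at least 2-fold apart, with a median of 0.37.

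Of 38 transducers of chemokine receptor signals, 35 were measured. Of 26 kept between the Egln1Tie2Cre and floxed libraries, 1 was at least 2-fold higher, against 3.93% of all genes, which is the background share, and 0 were lower, against 3.84%. At 1.5-fold 6 were higher, against 9.46%, and 0 lower, against 8.73%, and the median log2 ratio was 0.25. The gene at least 2-fold higher was Grk5, a kinase that desensitises receptors, at 10.6 FPKM in the library labelled Egln1/Hif2aTie2Cre, 17.9 FPKM in the Egln1Tie2Cre library and 7.57 FPKM in the floxed library. Arrb1, a beta-arrestin that uncouples receptors, was 7.25 FPKM in the library labelled Egln1/Hif2aTie2Cre, 19.4 FPKM in the Egln1Tie2Cre library and 10.3 FPKM in the floxed library, and it was the 1 of 26 transducers at least 2-fold lower in the library labelled Egln1/Hif2aTie2Cre than in the Egln1Tie2Cre library, against 4.08% of all genes, while 0 were higher. At 1.5-fold 5 of the 26 were lower in that pair, against 9.64%, 0 were higher, and the median was -0.22. Between the library labelled Egln1/Hif2aTie2Cre and the floxed library 0 of 27 were 2-fold apart, with a median of 0.06. Grk5 and Arrb1 were thus highest in the Egln1Tie2Cre library. Of the receptors, Ackr3, Cxcr4, Ccr2, Cx3cr1 and Ccr10 were lowest in that library, whereas Ackr2 and Ccr7 were highest there. No link between transducers and receptors was tested. Of 20 transcription factors and cytokines upstream of chemokine genes, 18 were measured and 16 kept in each pair. Irf7, an interferon regulatory factor, was the 1 of 16 at least 2-fold lower in the Egln1Tie2Cre library than in the floxed library, against 3.84% of all genes, 0 were higher, against 3.93%, and the median log2 ratio was 0.11. Irf7 was 9.22 FPKM in the library labelled Egln1/Hif2aTie2Cre, 4.70 FPKM in the Egln1Tie2Cre library and 10.9 FPKM in the floxed library. In both pairs with the library labelled Egln1/Hif2aTie2Cre, 0 regulators were 2-fold apart, with medians of -0.16 against the Egln1Tie2Cre library and 0.03 against the floxed library.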

How the data were processed

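RNA of left ventricles was pooled from 3 mice per genotype and sequenced as 1 library each. Per the submitters' processing notes the authors used TopHat2 and Cuffdiff, with versions, genome build and annotation not given in the sources used here. The 3 deposited tables, 1 for each pair of libraries, hold FPKM, a q-value and a fold per gene, per the file headers, and the fold was not used. Columns were assigned to libraries by the titles in each table's name, and a library's values were identical wherever a gene recurred between tables, except for 1 value in the floxed library. Absence of a gene from a table does not show that it was undetected.

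Plain folds are ratios of FPKM. Class counts used log2((FPKM + 1)/(FPKM + 1)) for genes whose mean in the 2 libraries reached 1 FPKM, with Python 3.11.15, pandas 2.3.3 and NumPy 2.4.6, and the counting was checked on simulated data. Fragments were recovered by a grid search over the length offset and the FPKM of 1 fragment, with transcript lengths of GENCODE M21 (GRCm38), a step added after the data were seen. Near-identical copies are other transcripts with at least 97% identity over at least 200 bases in BLAST+ 2.17.0, and overlaps are shared exonic bases. Every other member above 1 FPKM in any library is given in full, genes of the pathway lists are named where they were at least 2-fold apart, and marker genes are given as sums with examples. Of the genes the rule takes, 1 is not reported here, and counts over the members leave it out. The members, lists and thresholds were chosen with earlier results of these data known.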

Additional observations from a re-analysis of the deposited data

How the results depend on the processing

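Alternatives were a pseudocount of 0.1, no filter on low values, a threshold of 1.5-fold, centring on the median of all genes, and leaving out the 8 members with a near-identical copy or an overlapping gene. Of 60 counts under these alternatives, 52 stayed within 1.5 times the count reported, and no member's log2 ratio changed sign in 244 recomputed values. With a pseudocount of 0.1, ligands at least 2-fold lower in the Egln1Tie2Cre than in the floxed library numbered 3 in place of 1. Between the library labelled Egln1/Hif2aTie2Cre and the Egln1Tie2Cre library, 8 ligands in place of 3 were then higher. At 1.5-fold the corresponding counts were 3 ligands lower, 9 ligands and 2 receptors (in place of 1) higher, and 1 receptor (in place of 0) higher than in the floxed library, where 5 ligands in place of 2 were higher. Without members that have a copy or overlap, 0 receptors were at least 2-fold higher in the library labelled Egln1/Hif2aTie2Cre than in the Egln1Tie2Cre library, since Cx3cr1 is left out by construction. The medians moved in size and kept their sign. Without members that have a copy or overlap, those between the library labelled Egln1/Hif2aTie2Cre and the floxed library were 0.16 for ligands, in place of 0.44, and 0.10 for receptors, in place of 0.19, and the receptor median was also 0.10 with no filter. Between the Egln1Tie2Cre and floxed libraries the receptor median was -0.35 in both settings, in place of -0.11, and the ligand median was -0.16 with a pseudocount of 0.1, in place of -0.09. The other medians moved by less than 1.5 times. No paired analysis was possible because each genotype has 1 library, and no library could be left out. Small fragment numbers limit the precision of members under about 1 FPKM.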
